A study of Glycine max with 10 samples.

Results

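The transcripts described here stood higher at 40 and 45 days after flowering (DAF) than before or after, in developing seeds of the soybean (Glycine max) variety Evans grown in the field. Pods were taken on 25, 30, 40, 45 or 50 DAF, and total RNA of the seeds was hybridised to Affymetrix soybean arrays, with 2 biological replicates at each of the 5 time points and 10 arrays in all. The labels name no treatment or mutant, and they separate the groups by seed age alone. Their ages are used here, although part of the study's text names an earlier day for the third time point, 1 of the pair that defines the peak. The members were chosen by their measured values. On log2 signal centred on the median of each array, the mean of each time point was taken, and a score was computed as the lower of the 40 and 45 DAF means minus the highest of the 25, 30 and 50 DAF means. Probe sets with exactly 1 gene symbol, a 40 DAF mean above the array median and a score of at least 0.5 were kept. This gave 107 probe sets of 96 genes, out of 8677 probe sets with 1 symbol and 37593 on the array. A further 323 probe sets with several symbols or none met the same score and level and are not members, and 101 with 1 symbol met the score at a 40 DAF mean not above the array median. The mirror image, lower at 40 and 45 DAF than at the other 3 time points by at least 0.5 with a highest mean above the array median, held for 174 probe sets. Every array was multiplied to a common median of 309.9 for the signals below, and the 2 values of a time point are those of replicate 1 and replicate 2.

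Soybean seeds at these ages fill with storage protein and oil while the embryo is still green and fed by the phloem of the seed coat, and they then lose chlorophyll and dry as they mature. The phloem delivers sucrose and amino acids, and sieve elements hold proteins that can plug them. Soybean seeds also accumulate isoflavones, which arise from phenylalanine through the phenylpropanoid pathway and a legume branch that makes 5-deoxy compounds. Of the 35 members with an informative gene name (of 107), several code for sieve element proteins, for enzymes on the route from phenylalanine to isoflavones, for glutathione transferases and for transcription factors. The remaining members have a locus number in place of a name and are given mainly as counts.

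Most members had a peak of modest height. The score, on the log2 scale, had a median of 0.72 and ranged from 0.50 to 2.06, which puts the lower peak mean 1.64-fold above the highest other mean at the median and 4.17-fold at the most. At least a 2-fold step was seen in 20 of the 107. Over all 8677 probe sets with 1 symbol the median score was -0.90, and 812 of them had a score above 0. These values chose the members and carry no test. Between 30 and 40 DAF the members' median log2 difference was 1.13, against 0.01 over all probe sets with 1 symbol, and between 45 and 50 DAF it was -1.39 against 0.16. The level at the peak varied widely. Mean signals at 40 DAF ran from 327 to 21531 with a median of 1305, and at 25, 30 and 50 DAF the medians were 522, 521 and 397. The highest mean was at 40 DAF in 75 members and at 45 DAF in 32. The lowest was at 50 DAF in 59, at 25 DAF in 29 and at 30 DAF in 19.

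**Figure D1:**
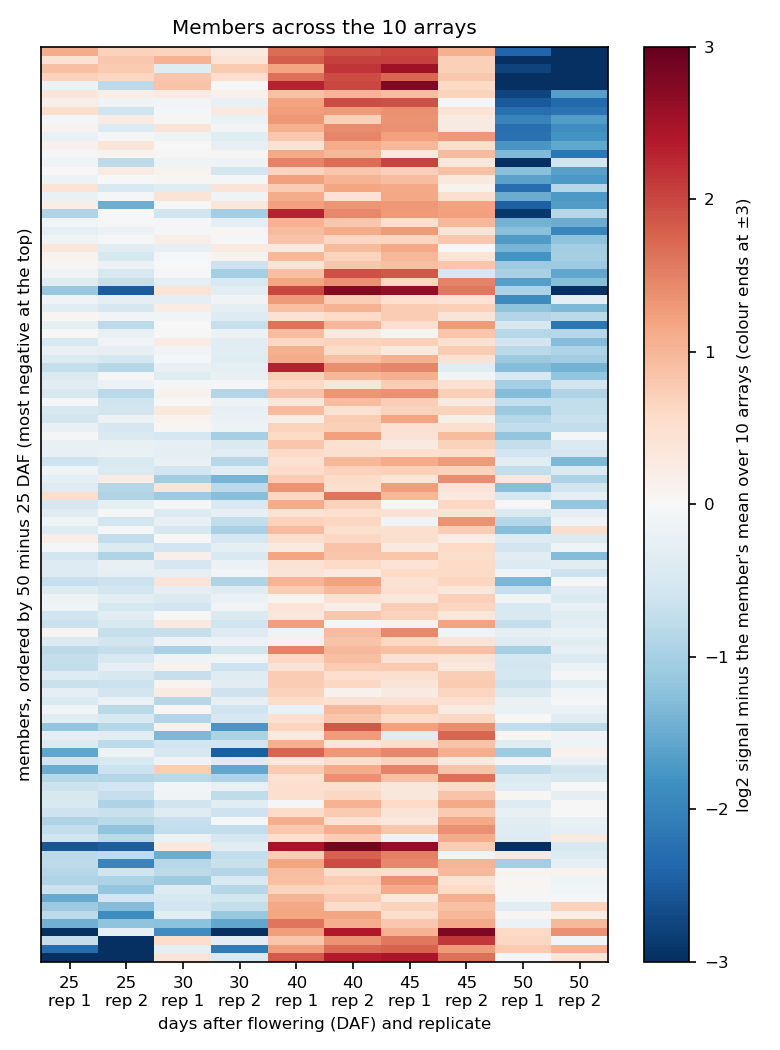
Each row is 1 of the 107 members and each column 1 of the 10 arrays, labelled by DAF and replicate, and the colour gives log2 signal minus the member's own mean. The rule makes the 40 and 45 DAF means the highest of each row, and in some rows columns of other ages are warm too. Rows are ordered by the change from 25 to 50 DAF, with the largest falls at the top and the largest rises at the bottom.

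The arrays differed in how clearly they showed the peak. In 80 of the 107 members the 4 arrays of 40 and 45 DAF all lay above the 6 others, as they did in 2.37% of all probe sets with 1 symbol, a pattern the rule itself favours and from which nothing is read. In the remaining 27 the arrays overlapped, and the lowest of the 4 peak arrays was then replicate 2 of 45 DAF in 15. Computed from replicate 1 alone the score was above 0 in 101 members and at least 0.5 in 58, and from replicate 2 alone in 98 and 62. The 45 DAF replicates correlated at 0.880 over all probe sets, below the 0.919 to 0.927 at the other time points, and array medians were 220.8 and 222.8 at 50 DAF against 303.8 to 325.2 before. Of 17 marker genes for seed coat, embryo storage tissue and green tissue, 10 had a probe set by that name, and none was a member. The summed signal of the 3 seed coat markers SCB1, HPS and EP was 80859 and 33458 at 45 DAF, 92381 and 79056 at 40 DAF and 13782 and 12396 at 50 DAF, so that replicate 2 of 45 DAF lay between 40 and 50 DAF. SCB1 alone was at 847 and 19958 at 30 DAF, whereas HPS was at 57078 and 48536 and EP at 30073 and 25900 at that age. The 6 storage markers summed to between 258228 and 371807 on every array, and CAB3, a chlorophyll-binding protein and the 1 green tissue marker measured, went from 45849 and 54626 at 25 DAF to 1078 and 1695 at 50 DAF. The part of these markers in the members' peak was not tested, and in whole seeds fewer cells of a type cannot be told apart from less RNA per cell.

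Sieve element occlusion (SEO) proteins, phloem proteins some of which form the bodies known as forisomes in legumes, supplied 3 members. SEOC gave signals of 8.21 and 8.18 at 25 DAF, 205 and 115 at 30 DAF, 562 and 814 at 40 DAF, 866 and 491 at 45 DAF and 150.1 and 203 at 50 DAF. It was close to the floor of the array at 25 DAF and the 4 peak arrays were above all others. SEOF gave 124 and 224 at 25 DAF, 578 and 118 at 30 DAF, 594 and 758 at 40 DAF, 972 and 631 at 45 DAF and 206 and 238 at 50 DAF. Replicate 1 of 30 DAF stood close to the peak arrays here, whereas replicate 2 of the same age did not. SEOA gave 137 and 96.5 at 25 DAF, 165 and 119 at 30 DAF, 341 and 337 at 40 DAF, 464 and 325 at 45 DAF and 223 and 202 at 50 DAF, with no overlap between the 4 peak arrays and the others. The scores were 1.90, 1.36 and 0.68. The SEO family, looked up after these values had been seen, has 11 probe sets with 1 symbol, of which 5 had a score above 0. Both probe sets of SEOE reached the score, at 0.50 and 0.64. Their 40 DAF means were -0.64 and -0.14 on the log2 scale relative to the array median, and so missed the level the rule asks for. On the first the 45 DAF arrays were at 302 and 67.6, and the lower lay under both 30 DAF arrays, at 102 and 101. SEOS, SEOM, SEOP, both probe sets of SEO-F3 and a second probe set of SEOA had scores from -1.76 to -0.10. SEO-F3 had mean signals of 269 at 25 DAF, 478 at 30 DAF, 484 at 40 DAF, 446 at 45 DAF and 423 at 50 DAF on its probe set of higher score, with no step at the peak ages.

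The route from phenylalanine to isoflavones, together with enzymes that act on isoflavones, supplied 5 members. PAL2.1, CHR1 and CHR5 lie on the route, and LOC547659 and IF7GT are named for acting on isoflavones. PAL2.1 codes for phenylalanine ammonia-lyase, the entry enzyme of the pathway. Its member probe set gave 173 and 75.4 at 25 DAF, 165 and 188 at 30 DAF, 678 and 1162 at 40 DAF, 808 and 605 at 45 DAF and 146 and 248 at 50 DAF, and each of the 4 peak arrays was above every other array. CHR1 and CHR5 code for chalcone reductases, which act with chalcone synthase to make the 5-deoxy chalcone. CHR1 gave 303 and 294 at 25 DAF, 269 and 410.1 at 30 DAF, 1050.2 and 949 at 40 DAF, 1434 and 757 at 45 DAF and 574 and 516 at 50 DAF. The 4 peak arrays did not overlap the others, and 50 DAF stayed above 25 DAF in both replicates. CHR5 gave 942 and 978 at 25 DAF, 589 and 992 at 30 DAF, 2748 and 5639.5 at 40 DAF, 4707 and 1557 at 45 DAF and 2006 and 1249 at 50 DAF. Its 45 DAF replicates lay far apart and the lower one fell within the range of 50 DAF. LOC547659, listed under the older names IFR and IFR1 for isoflavone reductase, gave 169 and 189 at 25 DAF, 222 and 147 at 30 DAF, 361 and 520.2 at 40 DAF, 564 and 628 at 45 DAF and 205 and 103 at 50 DAF. IF7GT codes for the isoflavone 7-O-glucosyltransferase that makes the storable glucosides, and gave 678 and 485 at 25 DAF, 607 and 728 at 30 DAF, 897 and 1898 at 40 DAF, 1405 and 2014 at 45 DAF and 705 and 908 at 50 DAF, with replicate 1 of 40 DAF overlapping 50 DAF.

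Most of the pathway did not meet the rule. Of 66 probe sets of 32 genes in the phenylpropanoid and flavonoid list, 4 were members (6.1%, against 1.23% of all probe sets with 1 symbol), 13 had a score above 0 and the median score was -0.79. IF7GT stands in the glycosyltransferase list, where it was the 1 member of 11 probe sets. In the comparison of 50 with 25 DAF, 17 of the 66 were higher and 25 lower (limma, adjusted p under 0.05), and the 4 members were in neither count, where 26.8% of all probe sets with 1 symbol were higher and 24.8% lower. The highest score of the list, 2.46, belonged to a probe set of CHS1, a chalcone synthase, with signals of 19.6 and 49 at 25 DAF, 50.4 and 22.1 at 30 DAF, 501 and 103 at 40 DAF, 75.6 and 448 at 45 DAF and 7.96 and 73.6 at 50 DAF. Its replicates disagreed widely at both peak ages, and the lower of 45 DAF was close to 50 DAF. It stood 0.45 below the array median at 40 DAF on the log2 scale and is for that reason no member. Likewise 4CL3 and 4CL4, of the 4-coumarate CoA ligases, had scores of 1.42 and 1.09 at 40 DAF levels of -0.02 and -0.94. Other genes of the branch had their highest mean at 50 DAF, and CHS8 had mean signals of 624 at 25 DAF, 531 at 30 DAF, 7458 at 40 DAF, 8404 at 45 DAF and 18234 at 50 DAF on 1 of its probe sets. IFS2, an isoflavone synthase, had 4052 at 25 DAF, 5024 at 30 DAF, 11965 at 40 DAF, 16948 at 45 DAF and 56503 at 50 DAF. CHI1B1, a chalcone isomerase, had its highest mean at 25 DAF, with 1023 at 25 DAF, 806 at 30 DAF, 301 at 40 DAF, 291 at 45 DAF and 45.3 at 50 DAF. Genes named IFR1 and IFR2 in the table are other loci than LOC547659, and their 7 probe sets had scores from -3.13 to -0.37.

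**Figure D2:**
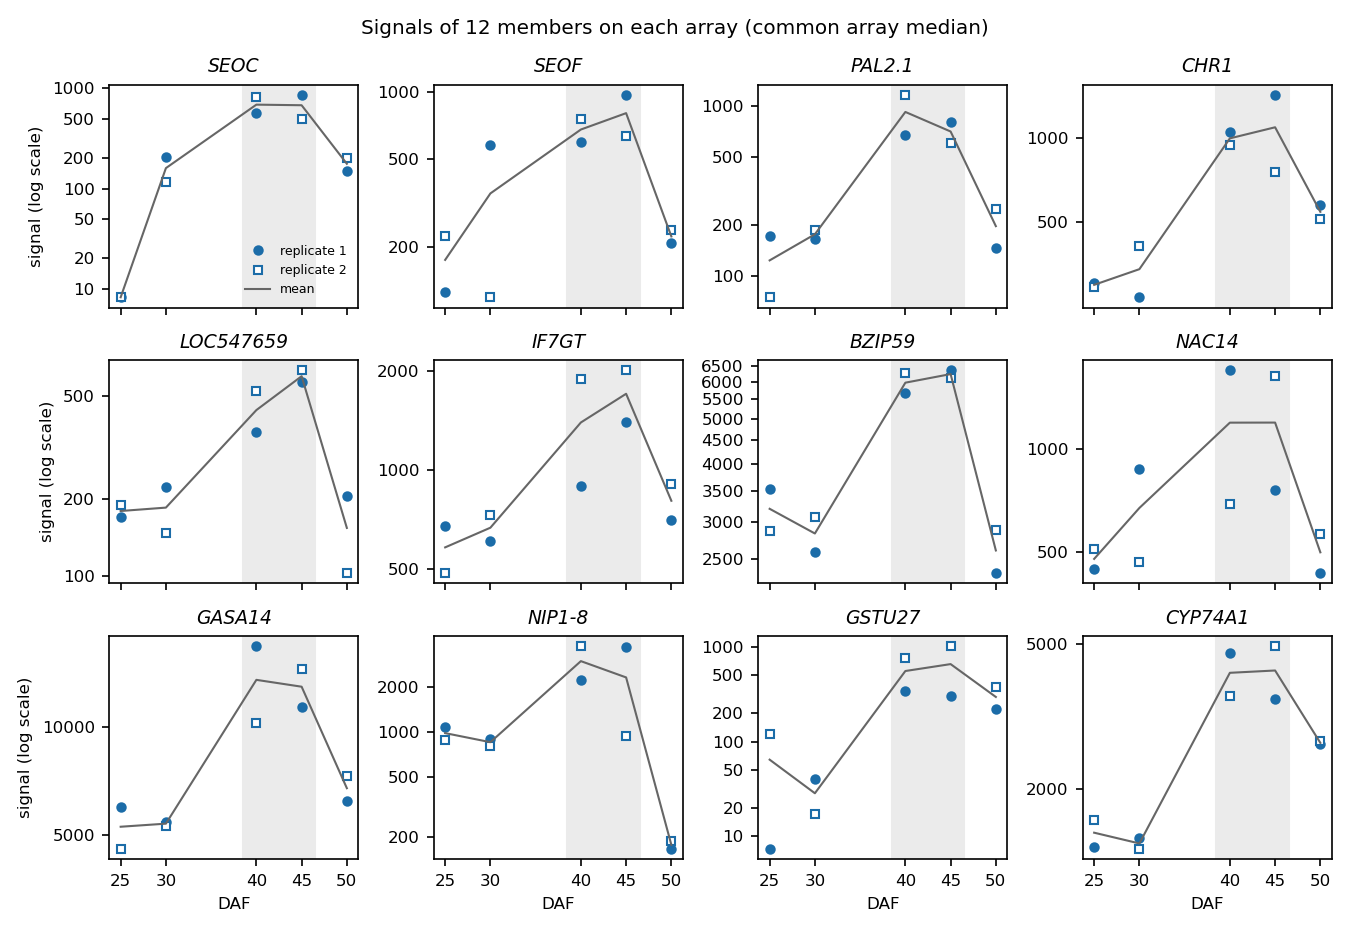
Signals of 12 named members (log scale, own range in each panel) against DAF, with filled circles for replicate 1, open squares for replicate 2, a line through the means and the peak ages shaded. SEOC starts near 8 at 25 DAF, NIP1-8 ends lowest at 50 DAF with replicate 2 of 45 DAF near its 25 DAF level, and BZIP59 keeps its 4 peak arrays together above all others.

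Enzymes of detoxification and oxidative metabolism were another group. Of 97 probe sets in the oxidative stress and glutathione list 3 were members (3.1%). LOC100812502, listed as the glutathione transferase GSTF11, gave 24.3 and 26.1 at 25 DAF, 176 and 115 at 30 DAF, 794 and 1051 at 40 DAF, 895 and 243 at 45 DAF and 15.7 and 104 at 50 DAF. The replicates of 45 DAF differed widely, yet the lower was still above every array outside the peak. GSTU27, a glutathione transferase of another class, gave 7.34 and 121 at 25 DAF, 39.8 and 17 at 30 DAF, 342 and 768 at 40 DAF, 299 and 1014 at 45 DAF and 219 and 372 at 50 DAF, with replicate 1 of both 40 and 45 DAF under replicate 2 of 50 DAF. SODB2, an iron superoxide dismutase, gave 455 and 513 at 25 DAF, 486 and 488 at 30 DAF, 1051 and 949.7 at 40 DAF, 568 and 914 at 45 DAF and 189 and 106 at 50 DAF. Its lowest peak array, replicate 1 of 45 DAF, exceeded the highest other array by little. Over the glutathione transferases as a family, 59 probe sets of 38 genes, 10 had a score above 0 and 2 were members.

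Single members of other kinds peaked as well. HIUHase, which acts on hydroxyisourate in the breakdown of urate, gave 114 and 121 at 25 DAF, 132 and 207 at 30 DAF, 454 and 289 at 40 DAF, 263 and 470.3 at 45 DAF and 172 and 182 at 50 DAF. All 4 peak arrays exceeded the others. CYP74A1, an allene oxide synthase at the entry to jasmonate synthesis, was named after its values had been seen and gave 1381 and 1645 at 25 DAF, 1462 and 1365 at 30 DAF, 4747 and 3606 at 40 DAF, 3532 and 4945 at 45 DAF and 2654 and 2700.3 at 50 DAF, so that 50 DAF lay between the peak and the early time points. LOC547499, with the older name IPER1, had 2 member probe sets, and the one of higher score gave 2162 and 1984 at 25 DAF, 2775 and 2223 at 30 DAF, 6211 and 5382 at 40 DAF, 6001 and 3874 at 45 DAF and 1321 and 1384 at 50 DAF. SALI5-4A, of a group named for induction by aluminium in soybean, gave 738 and 566 at 25 DAF, 527 and 385 at 30 DAF, 1162 and 1782 at 40 DAF, 1029.7 and 1474 at 45 DAF and 336 and 750.5 at 50 DAF, with no overlap. SGR, from the stay-green family of chlorophyll breakdown, was also named after its values had been seen. It gave 984 and 1221 at 25 DAF, 951 and 1065 at 30 DAF, 1702 and 1782 at 40 DAF, 1709 and 1690.0 at 45 DAF and 934 and 1044 at 50 DAF, and its replicates at the peak lay close together. Its relatives SGR1 and SGR2 did not share this profile, and their means were 286 at 25 DAF, 291 at 30 DAF, 1522 at 40 DAF, 2657 at 45 DAF and 13577 at 50 DAF for SGR1 and 368 at 25 DAF, 218 at 30 DAF, 1210.1 at 40 DAF, 3218 at 45 DAF and 9155 at 50 DAF for SGR2.

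The members also included transporters, peptides and signalling proteins. In the transporter list 2 of 61 probe sets were members (3.3%, against 1.23% overall). NIP1-8, an aquaporin of the nodulin 26-like type, gave 1081 and 886 at 25 DAF, 902 and 812 at 30 DAF, 2199.8 and 3713 at 40 DAF, 3674 and 936 at 45 DAF and 168 and 189 at 50 DAF. Replicate 2 of 45 DAF was at the level of 25 and 30 DAF, below the rest of the peak, and 50 DAF was the lowest age. SWEET34, of the SWEET sugar transporters, gave 205 and 225 at 25 DAF, 244 and 246 at 30 DAF, 387 and 326 at 40 DAF, 429 and 348 at 45 DAF and 126 and 174 at 50 DAF, with a score of 0.54 and no overlap. GASA14, a small cysteine-rich peptide of the gibberellin-regulated GASA family, gave 5974 and 4579 at 25 DAF, 5445 and 5318 at 30 DAF, 16712 and 10252 at 40 DAF, 11369.8 and 14439 at 45 DAF and 6212 and 7286 at 50 DAF. The 4 peak arrays exceeded the others, and it was the 1 member among 20 GASA probe sets. IQD40, with the calmodulin-binding IQ motif, gave 245 and 277 at 25 DAF, 254 and 219 at 30 DAF, 492 and 782 at 40 DAF, 664 and 692 at 45 DAF and 59.6 and 81.8 at 50 DAF, without overlap.

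Genes of light signalling were represented by single members, named after their values had been seen. LOC100786551, listed under the cryptochrome names CRY1c1 and CRY1c2, had 536 ± 64.2 at 25 DAF, 426 ± 132 at 30 DAF, 821 ± 72.8 at 40 DAF, 844 ± 68.2 at 45 DAF and 179.7 ± 33 at 50 DAF (mean signal ± SD, n = 2). Cryptochromes are blue light receptors. COL10, a CONSTANS-like factor, had 1233 ± 211 at 25 DAF, 1476 ± 415 at 30 DAF, 2344 ± 76.7 at 40 DAF, 2247 ± 282 at 45 DAF and 801 ± 283 at 50 DAF. For both genes the 4 peak arrays lay above the 6 others. Of 5 cryptochrome probe sets 2 had a score above 0, both of LOC100786551, and of 4 CONSTANS-like probe sets 1 did. SSH2, a Sec14-like protein that binds phosphoinositides, had 902 ± 232 at 25 DAF, 1113 ± 247 at 30 DAF, 2353 ± 427 at 40 DAF, 1861 ± 957 at 45 DAF and 238 ± 45.6 at 50 DAF, and its arrays overlapped through replicate 2 of 45 DAF.

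Transcription factors made up 9 members of 7 genes, of 397 probe sets in their list (2.3%, against 1.23% overall). BZIP59 was measured by 2 member probe sets. The first gave 3546 and 2872 at 25 DAF, 2595 and 3088 at 30 DAF, 5685 and 6264 at 40 DAF, 6346 and 6119 at 45 DAF and 2337 and 2889.8 at 50 DAF. The other gave 716 and 672 at 25 DAF, 586 and 734 at 30 DAF, 1593 and 1324 at 40 DAF, 1315 and 1569 at 45 DAF and 657 and 907 at 50 DAF. Both had a score of 0.90, and on both all 4 peak arrays stood above the rest. BZIP124 gave 5544 and 5719 at 25 DAF, 6721 and 5802 at 30 DAF, 10856 and 9180.2 at 40 DAF, 9271 and 10505 at 45 DAF and 1849 and 2564 at 50 DAF, and 50 DAF was its lowest age on both arrays. NAC14 had 2 member probe sets too. The one with the higher score gave 445 and 509 at 25 DAF, 876 and 468 at 30 DAF, 1694 and 691 at 40 DAF, 759 and 1628 at 45 DAF and 434 and 564 at 50 DAF. On this probe set the replicates at 40 and 45 DAF disagreed in opposite order. The other NAC14 probe set gave 2898 and 2779 at 25 DAF, 5079 and 3433 at 30 DAF, 7795 and 5541 at 40 DAF, 6519.6 and 6580.4 at 45 DAF and 1889 and 2437 at 50 DAF, without overlap. MYB177 gave 439 and 527 at 25 DAF, 657 and 493 at 30 DAF, 839 and 1149.8 at 40 DAF, 1067 and 839.7 at 45 DAF and 481 and 514 at 50 DAF, also without overlap, whereas MYB73 gave 162 and 157 at 25 DAF, 76.9 and 101 at 30 DAF, 239.5 and 476 at 40 DAF, 151 and 656 at 45 DAF and 202 and 181 at 50 DAF with replicate 1 of 45 DAF inside the range of the other ages. BZIP90 and NF-YA13 had lower scores of 0.56 each, and the arrays of both overlapped. The other probe sets of BZIP90 did not share the peak, with scores of -1.27, -0.59 and -0.52. Each had its highest mean at 50 DAF, at a 40 DAF level under the array median. WRKY factors, with 104 probe sets, had no member, although 14 had a score above 0.

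The members of highest signal mostly lack a name. Signals of different probe sets do not compare as amounts of transcript, and this order only chose which to describe. LOC547634, with 3 member probe sets, gave 12854 and 13031 at 25 DAF, 12425 and 11747 at 30 DAF, 22133 and 20929.9 at 40 DAF, 21303 and 21628 at 45 DAF and 10060.2 and 10624 at 50 DAF on the first. The replicates were close at every age and the peak stood apart. LOC100306230 gave 5635 and 7280.0 at 25 DAF, 8547 and 5557 at 30 DAF, 14627 and 17423 at 40 DAF, 17354 and 6870.3 at 45 DAF and 154 and 178 at 50 DAF on the first of its 2 member probe sets. At 45 DAF replicate 2 was within the range of 25 and 30 DAF, and 50 DAF was far below every other age. LOC100813958 had 5993 ± 502 at 25 DAF, 8011 ± 1918 at 30 DAF, 15661 ± 1153 at 40 DAF, 13283 ± 197 at 45 DAF and 3282 ± 245 at 50 DAF (mean ± SD, n = 2). Of the 10 members with the highest 40 DAF mean, the others were GASA14, BZIP124, LOC100818162, LOC547630, LOC100814324 and the remaining probe sets of LOC547634. Among the 20 members of highest score 7 had a name. N6L, at a score of 1.735, was among these 7. It gave 62.1 and 165 at 25 DAF, 132 and 32.8 at 30 DAF and 610 and 449 at 40 DAF. At 45 DAF N6L gave 495 and 391, and at 50 DAF 87.3 and 200, without overlap. The highest of all, LOC100803418 with a score of 2.06, had low signals outside the peak, with 32.8 and 12.8 at 25 DAF, 96 and 58.5 at 30 DAF, 291 and 488 at 40 DAF, 452 and 216 at 45 DAF and 37.4 and 3.21 at 50 DAF. Signals under 50, as at 25 DAF here, are uncertain since detection calls were not used here, and mean signals under 50 were found for 4 members at 25 DAF and 5 at 50 DAF. LOC100805579 came next, with 2 member probe sets at scores of 2.03 and 1.35, and the first gave 149 and 188 at 25 DAF, 372 and 101 at 30 DAF, 541 and 1228 at 40 DAF, 794 and 893 at 45 DAF and 204 and 196 at 50 DAF.

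Different probe sets of a gene did not always share the peak. Of the 96 member genes, 58 have 1 probe set with that single symbol and 38 have more. Of these 38, 2 had members only, and the other 36 had 46 probe sets that were not members. A score above 0 was found for 27 of the 46, and for 17 of the 26 that were above the array median at 40 DAF. PAL2.1 is an example, with scores of 0.23 and -0.83 at its other probe sets. The first of these had mean signals of 1722 at 25 DAF, 1841 at 30 DAF, 10539 at 40 DAF, 8925 at 45 DAF and 7753 at 50 DAF, with 50 DAF close to 45 DAF. The second had 6321 at 25 DAF, 3058 at 30 DAF, 3591 at 40 DAF, 4808 at 45 DAF and 4489.6 at 50 DAF. Both are marked by the maker as sharing probes with other transcripts, as 20 of the 107 members are (1994 of all 8677), so signals of such probe sets can mix transcripts. Members so marked include CHR1, CHR5, GASA14, both probe sets of LOC547499 and the first ones of BZIP59, LOC547634 and LOC100306230. CHR1 had 39.8 at 25 DAF, 102 at 30 DAF, 342 at 40 DAF, 542 at 45 DAF and 427 at 50 DAF at its other probe set, with its highest mean at 45 DAF. This probe set is not so marked and had a score of -0.40. GASA14 had other probe sets with scores of 0.25 and -1.32. SALI5-4A had 1 at -1.03 with 5508 at 25 DAF, 4523 at 30 DAF, 5506 at 40 DAF, 10764 at 45 DAF and 11219 at 50 DAF. In contrast, the other probe sets of BZIP59 and NAC14 peaked as the members do, with scores of 0.62 and 0.62, at levels under the array median. The values given for such genes are those of 1 probe set each.

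**Figure D3:**
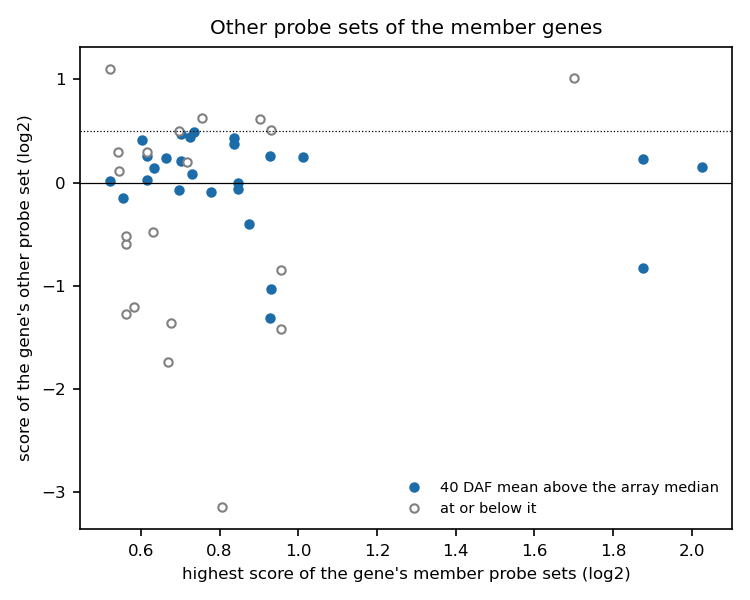
Each point is 1 of the 46 probe sets that belong to a member gene and are not members, with its own score (log2, y axis) against the best score among the gene's member probe sets (log2, x axis). Filled points are above the array median at 40 DAF, of which 17 of 26 lie above the line at 0, and the dotted line is the score of 0.5.

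Whether levels after the peak returned to those before it was tested as the difference between 50 and 25 DAF, with a linear model of time point and replicate number over all 37593 probe sets (limma, adjusted p under 0.05). Of the 107 members 8 were higher at 50 DAF and 26 lower, which is 7.48% and 24.3%, where 24.6% of all probe sets were called higher and 19.3% lower. The rule used both means though not their difference, and nothing is read from the gap between these shares. The other 73 did not pass, which does not show that they returned to the earlier level. The median log2 difference of the members was -0.20, against 0.04 over all probe sets with 1 symbol, and 74 of them were within 1 log2 of their 25 DAF level. Split by direction the calls depended on the scaling of the arrays. The median over all probe sets shifts by -0.46 with the values as deposited and by -0.13 after quantile normalization, and the split was then 4 higher and 38 lower, and 7 higher and 36 lower. All 34 members called kept their sign in both. With replicate 2 of 50 DAF left out, 2 higher calls were made, for SEOC and LOC100306484. Leaving out replicate 2 of 25 DAF gave 3, and leaving out replicate 1 of either age gave 5.

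**Figure D4:**
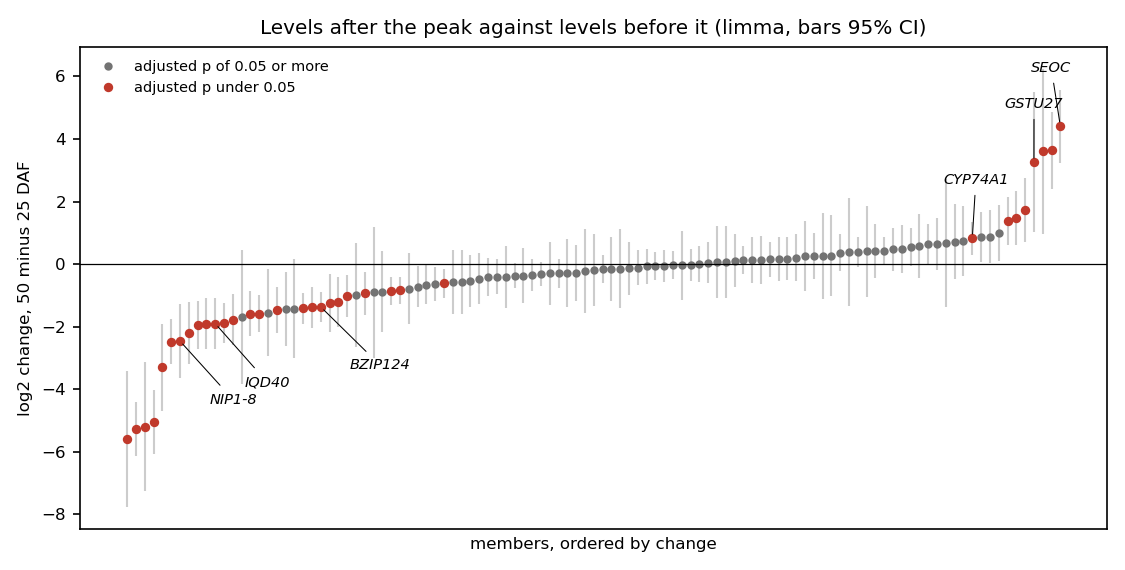
Members are ordered along the x axis by their log2 change from 25 to 50 DAF (y axis, bars are 95% confidence intervals), with the 34 that passed an adjusted p of 0.05 in red. The 26 lower ones reach -5.59 and the 8 higher ones reach 4.41 for SEOC.

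SEOC rose, with a log2 change from 25 to 50 DAF of 4.41 (95% CI 3.25 to 5.58, limma, adjusted p = 0.000221), from signals near 8, where MAS signals are uncertain. LOC100306484 rose by 3.64 (95% CI 2.41 to 4.87, limma, adjusted p = 0.000706) and LOC100526846 by 1.72 (95% CI 0.71 to 2.74, limma, adjusted p = 0.0122). LOC100526846 was not called without either array of 25 DAF or without replicate 2 of 50 DAF. With 50 added to each signal the changes were 1.98 for SEOC and 2.53 for LOC100306484, which turned their order. GSTU27 rose by 3.26 (95% CI 1.02 to 5.49, limma, adjusted p = 0.0247), but its 25 DAF arrays were at 7.34 and 121. It was 4.97 without replicate 2 of 25 DAF, 1.76 with 50 added to each signal, and not called without replicate 1 of 25 DAF, without either array of 50 DAF or without the trend of the prior variance. LOC778029 rose by 3.60 (95% CI 0.96 to 6.24, limma, adjusted p = 0.0325), with 25 DAF arrays at 128 and 3.46. Its change was 6.15 without replicate 1 of 25 DAF and 1.66 with 50 added, and it was not called without replicate 2 of 25 DAF, without either array of 50 DAF, without the trend of the prior variance or with the values as deposited. CYP74A1 rose least of the 8, by 0.83 (95% CI 0.30 to 1.35, limma, adjusted p = 0.0171), and was not among the 4 called with the values as deposited, which were SEOC, GSTU27, LOC100306484 and LOC100526846. Nor was CYP74A1 called after quantile normalization, without the trend of the prior variance, or with any array of 25 or 50 DAF left out. The largest falls were those of LOC100793153, LOC100306230, LOC100788506 and LOC547541, all with locus numbers only. Of the 2 member probe sets of LOC547541, 1 had a log2 change of -3.30 (95% CI -4.68 to -1.92, limma, adjusted p = 0.00211) and the other of -1.69 (95% CI -3.83 to 0.44, limma, adjusted p = 0.182), which was not called. LOC100306230 fell on both member probe sets, and its log2 change was -5.28 (95% CI -6.14 to -4.41, limma, adjusted p = 4.24e-05) on the first and -5.05 (95% CI -6.08 to -4.02, limma, adjusted p = 8.51e-05) on the second. LOC100793153 had a log2 change of -5.59 (95% CI -7.76 to -3.43, limma, adjusted p = 0.00141) and LOC100788506 of -5.20 (95% CI -7.27 to -3.13, limma, adjusted p = 0.00163), each with 1 array of 50 DAF at a single-digit signal. The other probe set of LOC100793153, not a member, did not share the fall, with mean signals of 1805 at 25 DAF and 2295 at 50 DAF. That of LOC100788506 went from 8336 at 25 DAF to 808 at 50 DAF.

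Among named members, the log2 signal of NIP1-8 fell by 2.46 (adjusted p = 0.00428, limma), SSH2 by 1.91 and IQD40 by 1.90. SODB2 fell by 1.77, the cryptochrome LOC100786551 by 1.58, BZIP124 by 1.37 and NF-YA13 by 1.24. Both member probe sets of LOC547499 fell as well. In this fit no call was made for the phenylpropanoid and isoflavone members PAL2.1, CHR1, CHR5, LOC547659 and IF7GT, whose log2 changes were 0.74, 0.87, 0.72, -0.30 and 0.48, nor for BZIP59, GASA14 and SGR. CHR1 was called higher at 50 DAF without replicate 1 or replicate 2 of 45 DAF (limma, adjusted p = 0.0265 and 0.0238). Of the 26 members called lower, replicate 2 of 45 DAF was below replicate 1 in 20. It was below in 2 of the 8 called higher and in 37 of the 73 not called. Over all probe sets with 1 symbol it was below in 54.3%. The share among all probe sets called lower or higher was not taken, so nothing about the members is read from these counts. Replicate 2 of 45 DAF also had the lower seed coat marker signals given above, and their part in this was not tested.

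Before the peak, 30 against 25 DAF gave no call among the members (limma, adjusted p under 0.05, 0 of 107), with 0.0106% of all probe sets called, and 9 members (8.41%) had an unadjusted p under 0.05, against 2.73% of all probe sets. The rule used both means though not their difference, so nothing is read from the gap between these shares. SEOC came nearest to a call, at a log2 change of 4.23 (adjusted p = 0.132), and it was the 1 member called when the replicate number was left out of the model (adjusted p = 0.0469). In 77 of the 107 members replicate 1 of 30 DAF was higher than replicate 2, that is 72.0%, against 48.1% of all probe sets with 1 symbol, and it was the highest of the 6 arrays outside the peak in 39. It is the array on which SCB1 was low, while the other seed coat markers HPS and EP were higher on it than on replicate 2. The part of this in the values at 30 DAF was not tested. Within the peak, 45 against 40 DAF gave 0 calls among the members, with 0% of all probe sets called, and 1 member, LOC100791609, had an unadjusted p under 0.05 (0.935%, against 2.92% of all probe sets), with a log2 change of -1.29 (limma, adjusted p = 1). The rule scored the lower of these means, which disfavours a large difference between them, and nothing is read from these shares either. When replicate 1 of 45 DAF was left out, 2 members were called lower at 45 DAF, LOC100791609 and NIP1-8, with log2 changes of -2.05 (limma, adjusted p = 0.0307) and -1.67 (adjusted p = 0.033), where 0.99% of all probe sets were called lower. The age then rests on replicate 2 alone, the array of lower seed coat markers, which is taken to vary like the other ages. Over the members the difference between 45 and 40 DAF ranged from -1.29 to 0.78 with a median of -0.09.

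Several lists of seed genes had no member, as may be read against the 1.23% of all probe sets with 1 symbol that are members, which comes to under 1 probe set in each of these lists. No probe set of the lists for storage proteins (13 probe sets), late embryogenesis abundant and seed maturation proteins (38), protease inhibitors (11), fatty acid synthesis and desaturation (26), heat shock proteins and chaperones (37), photosynthesis (18) or nitrogen and amino acid metabolism (29) met the rule. In the seed maturation list 34 of 38 were higher at 50 than at 25 DAF and 2 lower, and 1 had a score above 0. In the chaperone list 17 of 37 were higher and 11 lower, and 0 had a score above 0. Higher and lower counts were 2 and 3 for storage proteins, 3 and 3 for protease inhibitors and 4 and 12 for fatty acid synthesis. They were 1 and 8 for photosynthesis and 6 and 15 for nitrogen and amino acid metabolism. The lists for oil bodies and triacylglycerol synthesis (3), raffinose sugars and inositol (4), polyamines (9), cell wall (14), proteases (7), sugar and starch (8), kinases and phosphatases (30), ribosome and translation (12), ubiquitin and proteasome (8) and cell cycle and chromatin (6) were without a member too. Of the lists with members, 126 of the 397 transcription factor probe sets were higher at 50 than at 25 DAF and 65 lower, 35 and 17 of the 97 for oxidative stress and glutathione, and 8 and 29 of the 61 for transporters (limma, adjusted p under 0.05). Over all probe sets with 1 symbol 26.8% were higher and 24.8% lower. Storage protein scores ran from -3.13 to -0.07. In the hormone list GASA14 was the 1 member of 73, and in the cytochrome P450 list CYP74A1 was the 1 of 54. In gene order along the RefSeq annotation of soybean, all 96 member genes were placed, and 1 pair, LOC100170719 and LOC778113, had at most 4 protein-coding genes between them, in this case 3. The limit of the rule cut through a continuous range. Just inside were LOC100789661, LOC100807302 and LOC100500182 with scores of 0.511, 0.506 and 0.503, and just outside were LOC548046, LOC100306166 and LOC100801987 with 0.499, 0.497 and 0.495.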

How the data were processed

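Total RNA from Evans seeds at 5 ages was hybridised to 1 array per sample. The authors derived the deposited intensity values with MAS5 (Microarray Suite 5.0), globally scaled. Array medians ran from 220.8 to 325.2, and the number of arrays, 2 per age, limits the precision. The replicates are labelled as biological. No product names were used, and of genome positions only the order of genes was used. The log2 signals were centred on array medians, and for display signals were multiplied to a common median of 309.9. Of the probe sets, 8677 have 1 symbol in the probe-to-gene table, 370 have several and 28546 have none, and older names and the order of genes came from RefSeq (assembly Glycine_max_v4.0), where 8652 matched by gene ID. The sample labels give 40 DAF for the third age and are followed here, whereas part of the study's text names 35 DAF. Ages were compared with limma 3.58.1 in R 4.3.3, with age and replicate number as fixed effects and trended prior variances (residual degrees of freedom 4, prior 5.08), p-values adjusted by Benjamini-Hochberg over 37593 probe sets. The fit was tested on simulated data. Members and gene lists were chosen with earlier results of these data known. Named were the 20 highest scores with an informative name, the 10 highest 40 DAF means, up to 4 members of each list with at least 2, the 3 on each side of the limit, and the 5 largest called changes in each direction. SEOA, IF7GT, SGR, CYP74A1, COL10, LOC100786551, SSH2, BZIP90, NF-YA13, LOC100791609 and all genes that are no members were named after their values had been seen. Alternatives were no replicate block, quantile normalization, values as deposited, a pseudocount of 50, no variance trend, a filter at the array median, an adjusted p under 0.01, every array in place of means, and each array left out. Leaving out both 45 DAF arrays was chosen after seeing the data. Sequences and promoter motifs were not analysed here.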

Additional observations from a re-analysis of the deposited data

How the results depend on the processing

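The rule kept 107 probe sets, and 169 met it after quantile normalization, 186 with the values as deposited and 219 without both arrays of 45 DAF, a setting chosen after seeing the data. Where more than 150 met it, the 150 of highest score were compared with the 107, and 101, 94 and 91 of the members were among them. With every array required in place of the means 22 met it, all of them members. A pseudocount of 50 gave 108, of which 101 were members. With each array left out in turn, 85 to 151 met it and 76 to 102 members were kept. The fewest, 85, met it without replicate 1 of 45 DAF and the most, 151, without replicate 2, and 35 members were kept in all 10 of these settings. Calls between 50 and 25 DAF numbered 24 to 43 over all alternatives against 34, and 25 to 40 with an array left out. For 45 against 40 DAF the count was 0 to 2 with an array left out, and for 30 against 25 DAF it was 0 in each of these.

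Replicate numbers were kept as a block, although replicate differences correlated only at -0.0336 to 0.0302 between ages, so the samples share only a number. Without the block 36 members were called between 50 and 25 DAF, 1 between 30 and 25 DAF and 0 between 45 and 40 DAF. The cause of these shifts was not tested. Settings for promoter motifs were not run, as no promoter sequence was used here.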
